A study of Mus musculus with 6 samples.

Results

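Capillary endothelial cells pass fatty acids from the blood to the tissue behind them. Lipoprotein lipase (Lpl) frees fatty acids from triglyceride-rich lipoproteins, the anchor protein Gpihbp1 carries the lipase across the capillary wall and holds it at the luminal side, and Angptl4 inhibits the lipase. Cd36 takes up fatty acids at the membrane, and the small binding proteins Fabp4 and Fabp5 hold them inside the cell. The transcription factors Meox2 and Tcf15, which act as a pair, and Pparg, a nuclear receptor that fatty acids bind, are known to drive uptake and binding genes in capillaries of heart, muscle and fat. The members are the rows whose symbol equals 1 of these 9 names. Of the 9 genes, 8 were measured among the 12911 genes of the tables, and all 8 passed the filter on low counts. Meox2 was not analysed here.

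The libraries held RNA of sorted endothelial cells of the glomerulus, the capillary tuft where the kidney filters blood. Both groups were eNOS-null mice, which lack endothelial nitric oxide synthase. The 3 STZ libraries came from mice given streptozotocin, a toxin of pancreatic beta cells that the labels describe as a diabetes model, and the 3 control libraries came from mice with no treatment. Glomeruli were isolated with magnetic beads and digested, and cells were sorted by EYFP fluorescence. Each library pooled RNA of 4 mice, so the spread given here is that between pools and not between mice. The sources used here do not give the age or sex of the mice, the dose and duration of STZ or the promoter that drives EYFP.

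Total counts were 10734376 to 12662371.5 in STZ libraries and 4387339 to 8751732.5 in control libraries, so every STZ library was the deeper one. Nos3, which encodes the enzyme named by the genotype, had counts of 6339, 8657 and 8243 in STZ pools 1, 2 and 3 and of 7711, 4711 and 4152 in control pools 1, 2 and 3. A gene count does not show whether those transcripts carry the null allele. Xist, which is expressed from the inactive X chromosome of female cells, averaged 0.687 CPM (the count scaled to the normalised library size) in STZ libraries and 709 CPM in control libraries. The 4 Y-linked genes examined all rose in STZ, so treatment and the sex that these genes mark cannot be told apart in any difference below. All 17 markers of glomerular and general endothelium were measured, and their summed level was 29460 to 32300 CPM in STZ and 18800 to 20180 CPM in control libraries. Of these 17 markers 9 rose, 0 fell and 8 did not pass. The median log2 fold change was 0.45, with values from -0.46 to 1.66 and 14 of 17 positive. Nos3 was below 0 (-0.31 ± 0.11, adjusted p = 0.0910 by edgeR). The most abundant of the 17 were Plat, the tissue plasminogen activator, and Ehd3, an endocytic protein of glomerular endothelium. They rose by 1.66 ± 0.15 and 0.80 ± 0.11 on the log2 scale (SE, edgeR). Plat averaged 8303 CPM in STZ and 2630.5 CPM in control libraries, and Ehd3 5230 and 3001 CPM. Much of the difference between the summed levels therefore rests on Plat and Ehd3. In pooled bulk RNA, more cells of a type and more RNA per cell cannot be told apart.

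Promoter windows of RefSeq (build GRCm38.p6) were available for Cd36 and Pparg among the measured genes, and are shown because Pparg encodes a nuclear receptor and Cd36 is among its known targets. The 250 bases before the start are printed 5′ to 3′ on the strand of the gene. Capitals mark AGGTCA on either strand, the core motif that PPAR proteins bind together with RXR. The Cd36 window lies at chr5:17835897-17836146 on the minus strand, before a start at 17835896 that is not the start of the transcript listed for Cd36 in the tables, and the Pparg window at chr6:115421816-115422065 on the plus strand, before the start of the transcript listed for Pparg.
Cd36: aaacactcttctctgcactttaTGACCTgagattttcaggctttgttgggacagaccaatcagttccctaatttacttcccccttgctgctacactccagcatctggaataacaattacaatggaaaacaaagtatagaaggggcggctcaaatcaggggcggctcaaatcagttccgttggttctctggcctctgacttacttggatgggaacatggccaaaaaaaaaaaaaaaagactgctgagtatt
Pparg: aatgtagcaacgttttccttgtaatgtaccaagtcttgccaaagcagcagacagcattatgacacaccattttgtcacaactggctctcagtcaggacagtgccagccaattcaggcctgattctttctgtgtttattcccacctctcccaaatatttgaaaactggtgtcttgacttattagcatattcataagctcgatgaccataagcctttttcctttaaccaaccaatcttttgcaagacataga

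The core motif AGGTCA occurred once in the Cd36 window, 228 bases before the start, and not in this Pparg window. Pparg has a pair of further windows upstream, at chr6:115360894-115361143 and chr6:115362099-115362348, and each held 1 AGGTCA, at 28 and 9 bases before its start. Of 32851 promoter windows of the same length, 14.0% held AGGTCA. The full element, a direct repeat of AGGTCA with 1 base between its copies, which contains the single motif, was in 0.033% of all windows and in none of these 4. The glucocorticoid receptor core AGAACA (16.1% of windows), its inverted repeat with 3 bases between (0.009%) and the homeobox core TAATTA (4.84%) had no match in these 4 either. The E-box CANNTG, in 66.2% of windows, had 1 match before Cd36 and 1 in the Pparg window printed above. The upstream Pparg window that starts at 115362099 held 1 E-box and the one at 115360894 held 0. TATAAA, in 12.4% of windows, was found in the Pparg window that starts at 115362099. The GC box GGGCGG, in 32.7% of windows, had 2 matches in the Cd36 window and 0 in the Pparg window printed above. In the upstream Pparg windows it had 1 match (start 115360894) and 2 matches (start 115362099). These are matches of letters on both strands and not sites shown to be bound.

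In STZ libraries 4 of the 8 measured genes rose and 0 fell by the edgeR quasi-likelihood test with Benjamini-Hochberg adjustment over all 12786 tested genes, at an adjusted p under 0.05. Over all tested genes 5.47% rose and 4.32% fell, or 9.78% in either direction. The 4 genes that rose were Gpihbp1, Lpl, Fabp4 and Cd36, each with a log2 fold change above 1, a size that 98 genes reached among all that rose. The other 4, Fabp5, Tcf15, Pparg and Angptl4, did not pass. The median log2 fold change was 1.08 over the 8 genes and -0.01 over all tested genes.

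**Figure D1:**
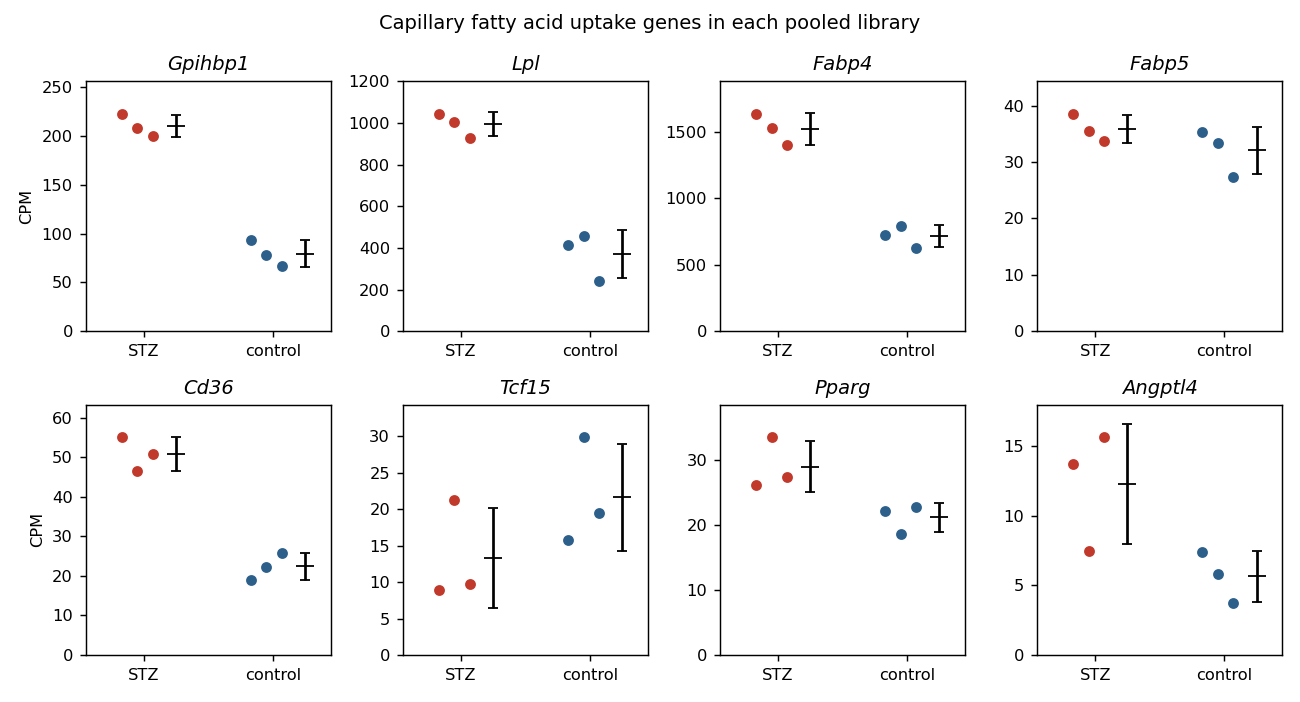
CPM (vertical axis, from 0) of the 8 measured genes in each pooled library, STZ in red and control in blue, with pools 1, 2 and 3 from left to right and the mean ± SD of 3 libraries in black. STZ libraries lie above every control library for Gpihbp1, Lpl, Fabp4, Cd36, Pparg and Angptl4, and the groups overlap for Fabp5 and Tcf15.

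Lipolysis genes were higher in STZ libraries at the anchor and at the enzyme. Gpihbp1 (NM_026730; mm10 chromosome 15, 75596658 to 75598213, plus strand) had 223, 208 and 200.1 CPM in STZ pools 1, 2 and 3, against 94.0, 77.7 and 66.9 CPM in control pools 1, 2 and 3. The lowest STZ library was more than 2 times the highest control library. Its means were 210.4 ± 11.7 CPM in STZ and 79.5 ± 13.6 CPM in control libraries (SD, n = 3 each), a fold of 2.63. The log2 fold change of 1.39 ± 0.12 (SE) had an adjusted p of 8.57e-06 by edgeR, and Gpihbp1 ranked 22 of all tested genes by p.

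Lpl (NM_008509; mm10 chromosome 8, 68880555 to 68906932, plus strand) had 1045, 1006 and 929.8 CPM in STZ pools, against 413, 458 and 242 CPM in control pools. The groups were far apart, and control pool 3 lay well below the other two control pools. The coefficient of variation of Lpl was 5.87% in STZ and 30.6% in control libraries. The means were 993 ± 58.3 CPM in STZ and 371 ± 114 CPM in control (SD, n = 3 each), a log2 fold change of 1.42 ± 0.22 (SE; adjusted p = 0.00860 by edgeR). Without STZ pool 1 the adjusted p was 0.0505, just outside the threshold, at a log2 fold change of 1.38. Without control pool 3 the log2 fold change was 1.20 and the adjusted p 7.09e-06. Control pool 3 also had the fewest counts of the 6 libraries, 4387339. Its summed markers were the lowest for leukocytes (97.7 CPM) and for glomerular and general endothelium (18800 CPM). For peritubular and venous endothelium its 3819 CPM was about level with the 3823 CPM of STZ pool 3. Podocyte markers were lowest in control pool 3 too (4428 CPM, of which Podxl alone gave 2956 CPM). The part of any of these in the Lpl spread was not tested.

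Angptl4, the secreted inhibitor of the lipase (NM_020581; mm10 chromosome 17, 33774900 to 33781575, minus strand), rested on few reads, with counts of 142, 86 and 193 in STZ pools and 67, 36 and 17 in control pools. In CPM this was 13.7, 7.44 and 15.6 in STZ pools, against 7.36, 5.78 and 3.76 in control pools. STZ pool 2 was barely above control pool 1, so the groups did not overlap by a narrow margin. The log2 fold change was 1.07 ± 0.31 (SE), of a size like that of Fabp4, with an adjusted p of 0.0551 by edgeR. Angptl4 passed under 2 of 16 other settings of the analysis. These were DESeq2 (adjusted p = 0.00853) and edgeR without STZ pool 2 (log2 fold change 1.32, adjusted p = 0.00385). Under the rest it did not pass, with an adjusted p of up to 0.181 by edgeR without STZ pool 1. STZ pool 2 also had the lowest summed mesangial and mural markers (618 CPM) and tubule markers (45.2 CPM) of the 6 libraries; their part in the spread of Angptl4 was not tested.

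The levels of the enzyme and its anchor were set against each other. Per kilobase of listed transcript, the ratio of Lpl to Gpihbp1 was 0.922, 0.951 and 0.915 in STZ pools, against 0.866, 1.16 and 0.713 in control pools. The STZ values fell inside the control range, and the difference of the log2 ratios was 0.06 (exact permutation test over libraries, two-sided, p = 0.70, adjusted over 4 ratios also 0.70). With 3 libraries a group this test cannot go below 0.10 and cannot show that the proportion was the same. The ratio of Lpl counts to Angptl4 counts was 76.1, 135 and 59.5 in STZ pools, against 56.1, 79.1 and 64.5 in control pools, and these overlapped (exact permutation p = 0.50, adjusted 0.667).

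Among transport and binding genes, Cd36 and Fabp4 rose and Fabp5 did not pass. Cd36, the membrane receptor and transporter of long-chain fatty acids (NM_001159558; mm10 chromosome 5, 17781690 to 17888959, minus strand), had 55.0, 46.6 and 50.7 CPM in STZ pools, against 19.0, 22.3 and 25.8 CPM in control pools. No control library came near the lowest STZ library. Its log2 fold change was 1.20 ± 0.13 (SE; adjusted p = 8.83e-05 by edgeR), on counts of 539 to 627 in STZ and 117 to 173 in control libraries. Cd36 is also known from platelets and red cell precursors. Platelet and red cell markers summed to 188 to 304 CPM in STZ and 46.4 to 91.5 CPM in control libraries, and 6 of the 8 measured rose. The only platelet gene measured was Itga2b, named after its value was seen, and the rest were red cell genes. Itga2b had counts of 212, 264 and 248 in STZ pools and 151, 86 and 57 in control pools. Its log2 fold change of 0.54 was the smallest of the list, whose median was 2.35. The 2 most abundant of these markers, Hbb-b2 and Hbb-bt, had identical counts in every library, so they enter both the sums and the 6 genes that rose as the same values given 2 times. The part of these cells in the Cd36 level was not tested.

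Fabp4, the fatty acid binding protein of adipocytes and capillaries (NM_024406; mm10 chromosome 3, 10204343 to 10208576, minus strand), had 1638, 1531 and 1398 CPM in STZ pools, against 725, 795 and 630 CPM in control pools. The 3 STZ libraries were all above the control libraries. The means were 1522 ± 120 CPM in STZ and 716 ± 82.7 CPM in control (SD, n = 3 each), a log2 fold change of 1.09 ± 0.11 (SE; adjusted p = 4.95e-05 by edgeR). Fabp4 alone held 0.147% of all counts in STZ and 0.0742% in control libraries. All 8 genes together held 0.277% ± 0.0168 in STZ and 0.132% ± 0.0218 in control libraries (SD, n = 3 each), with no overlap between groups.

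Fabp5, the relative of Fabp4 known from skin and also expressed in capillaries (NM_001272097; mm10 chromosome 3, 10012585 to 10016610, plus strand), lies 187732 bases from Fabp4 on the same chromosome. It had 38.6, 35.5 and 33.7 CPM in STZ pools, against 35.4, 33.4 and 27.4 CPM in control pools, and the groups overlapped. Its log2 fold change was 0.15 ± 0.12 (SE; adjusted p = 0.505 by edgeR), with a 95% interval of -0.12 to 0.42. That interval ends below the lower bound of Fabp4, 0.85. Fabp5 shared 21.1% of the 50-base windows of its transcript with transcripts of other genes in GENCODE M21, among them Fabp5l2, so some of its reads could belong to copies. Fabp4, Gpihbp1, Cd36, Tcf15, Pparg and Angptl4 shared no such window, and Lpl shared 4.11%.

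The levels of both binding proteins were set against each other in the same way. Per kilobase of listed transcript, Fabp4 stood at 62.9, 63.8 and 61.6 times Fabp5 in STZ pools, against 30.3, 35.3 and 34.1 times in control pools. The groups did not overlap, and the difference of the log2 ratios was 0.92 (exact permutation p = 0.10, the smallest that 3 against 3 libraries allow, and 0.20 when adjusted over the 4 ratios).

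**Figure D2:**
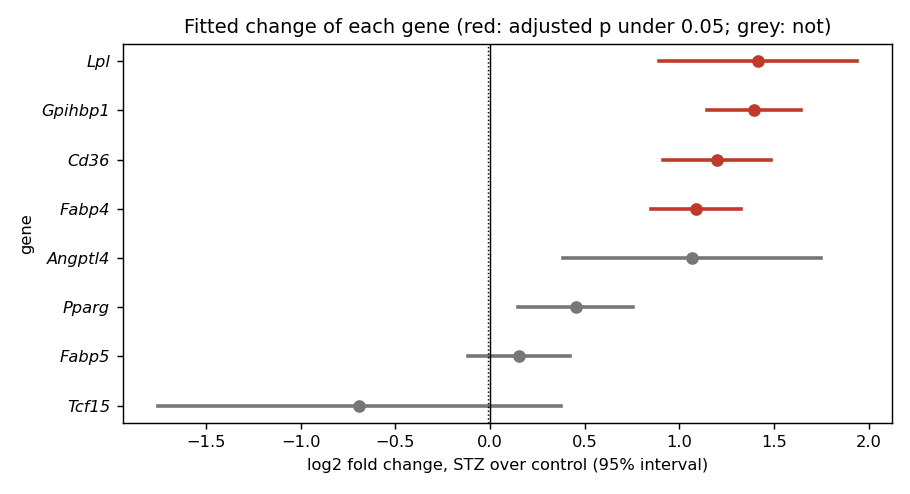
Fitted log2 fold change, STZ over control (horizontal axis) for each measured gene, with its 95% interval; red marks an adjusted p under 0.05 and the dotted line the median of all tested genes. Lpl, Gpihbp1, Cd36 and Fabp4 lie above 1 with intervals that stay above 0.8, and the interval of Tcf15 is the widest of the 8.

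The transcription factors did not pass the test. Pparg (NM_011146; mm10 chromosome 6, 115422066 to 115490401, plus strand) had 26.1, 33.5 and 27.4 CPM in STZ pools, against 22.2, 18.6 and 22.8 CPM in control pools. The groups did not overlap, and the log2 fold change was 0.45 ± 0.14 (SE; adjusted p = 0.0613 by edgeR; 95% interval 0.15 to 0.76). The value counts 2 listed transcripts, and an antisense gene, Gm44079, overlaps Pparg on the other strand. Since the strand setting is not given in the sources used here, reads of this pair cannot be told apart.

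Tcf15, a bHLH factor and the partner of Meox2 (NM_009328; mm10 chromosome 2, 152143609 to 152149096, plus strand), had 8.89, 21.3 and 9.79 CPM in STZ pools, against 15.7, 29.9 and 19.4 CPM in control pools. STZ pools 1 and 3 were below every control pool and STZ pool 2 was above 2 of them. The log2 fold change was -0.69 ± 0.43 (SE; adjusted p = 0.400 by edgeR), with a 95% interval of -1.76 to 0.37. Pool 2 was the highest library of each group. Without STZ pool 2 the log2 fold change was -1.20 and passed (adjusted p = 0.0130). Tcf15 was the measured gene with the largest spread in both groups, with coefficients of variation of 51.8% in STZ and 33.9% in control libraries. Per kilobase, the ratio of Tcf15 to Pparg was 0.647, 1.21 and 0.680 in STZ pools, against 1.34, 3.05 and 1.62 in control pools, with no overlap. The exact permutation p was 0.10, the smallest that 3 against 3 libraries allow, and 0.20 when adjusted over the 4 ratios.

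In 6 of the 8 genes every STZ library was above every control library, and in 0 every STZ library was below. Over all tested genes these shares were 15.4% and 13.7%, or 29.1% in either direction.

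**Figure D3:**
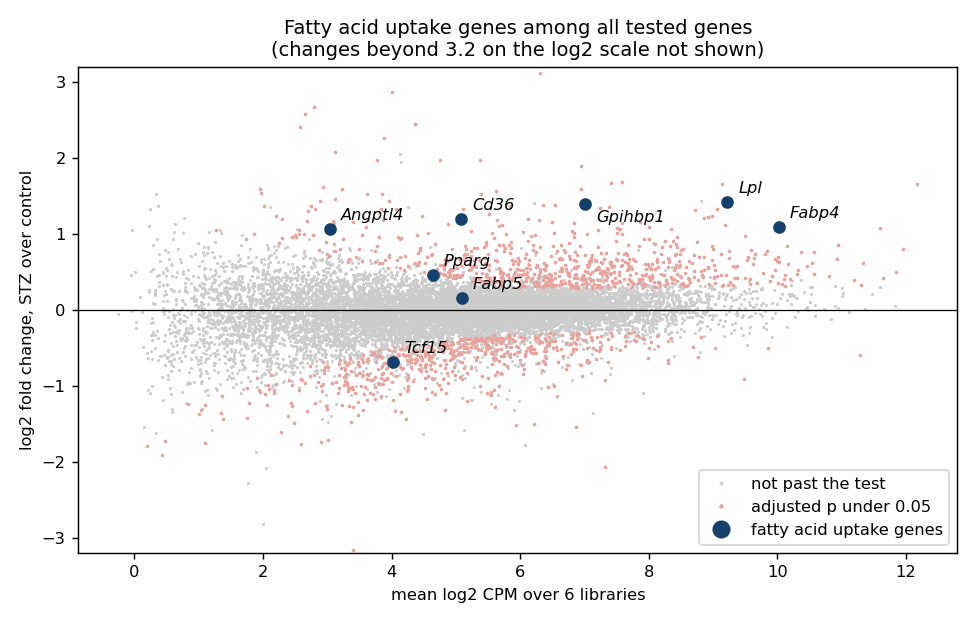
Mean log2 CPM over the 6 libraries (horizontal axis) against the log2 fold change, STZ over control (vertical axis), for all tested genes; pink dots passed an adjusted p of 0.05 and blue dots are the 8 measured fatty acid uptake genes. Fabp4 and Lpl lie at the right, among the abundant genes, and Angptl4 and Tcf15 lie in the lower range of abundance.

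Levels between genes were compared per kilobase of the listed transcript. Fabp4 stood at 2375 ± 187 CPM per kilobase in STZ and 1118 ± 129 in control libraries (SD, n = 3 each), which was rank 4 and rank 10 of all tested genes. That level uses the listed 641 bases of Fabp4. The 896 bases of its GENCODE M21 transcript would give a lower level and a lower ratio to Fabp5. Gpihbp1 came next with 264 ± 14.6 in STZ and 99.8 ± 17.1 in control, at ranks 224 and 680. Lpl followed with 245 ± 14.4 in STZ and 91.6 ± 28.1 in control. The ranges of Gpihbp1 and Lpl overlapped in each group. Within each STZ library Lpl was below Gpihbp1, by the ratios given above, and within control libraries Lpl was below it in pools 1 and 3 and above it in pool 2. Fabp5 was lower, at 37.8 ± 2.61 CPM per kilobase in STZ and 33.7 ± 4.38 in control libraries.

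Below Fabp5 the order was the same in all 3 control libraries and in STZ pool 2, with Tcf15 first, then Pparg, Cd36 and Angptl4, and it differed in STZ pools 1 and 3. In STZ libraries Pparg (16.4 ± 2.23 CPM per kilobase), Tcf15 (14.3 ± 7.41) and Cd36 (14.2 ± 1.18) overlapped. In control libraries Tcf15 ran from 16.9 to 32.1, Pparg from 10.5 to 12.9 and Cd36 from 5.33 to 7.25 CPM per kilobase, with no overlap. Angptl4 was the lowest of the 8 in every library, with 3.91 to 8.21 CPM per kilobase in STZ and 1.97 to 3.87 in control libraries. Cd36 lists 5 transcripts, and its level per kilobase uses the 3566 bases of 1 of them, against 2677 bases in GENCODE M21. Angptl4 was listed with 1903 bases, against 3308 bases in GENCODE M21, which would lower its level.

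Genes whose levels ran most like those that rose were read from Pearson's r of log2 CPM over the 6 libraries, among 10097 other genes with a mean log2 CPM of at least 3. For Gpihbp1 these were Ehd3 (r = 0.999), Txnip (0.998) and Wdr92 (0.998). For Fabp4 they were Sypl (0.999), the small GTPase gene Rap1a (0.999) and Srgn (0.998), and for Lpl the amino acid transporter chain Slc3a2 (0.997), Tmtc1 (0.996) and Tmem204 (0.996). For Cd36 they were the actin capping protein gene Capzb (0.998), Kbtbd11 (0.995) and Top1 (0.995). All points share the 2 groups and their depths, and 341 genes had r above 0.95 with Gpihbp1, so these are descriptions only. Among the measured genes, r was 0.98 between Gpihbp1 and Fabp4, 0.97 between Gpihbp1 and Lpl, and 0.43 between Fabp5 and Cd36.

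Partner genes of the wider fat pathway were described in 7 lists. Of 125 tested partner genes, 11 rose and 5 fell, or 12.8%, against 9.78% of all tested genes called in either direction. Their median log2 fold change was 0.04. The call held in each of the 6 fits that left out 1 library for 9 of these 16 genes. The other 7, Acsl3, Acvrl1, Id1, Id3, Meox1, Notch1 and Ptplad1, were all lost without control pool 1, where their adjusted p was 0.0743 to 0.145 by edgeR and each kept its direction.

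Of 17 other lipolysis genes, 2 rose, 2 fell and 13 did not pass (median log2 fold change 0.06). Sort1, the sorting receptor sortilin, rose by 0.75 ± 0.10 on the log2 scale, with 149 CPM in STZ and 88.9 CPM in control libraries. Acvrl1, a TGF-beta family receptor that also binds LDL in endothelium, rose by 0.35 ± 0.10, a call that held in 1 of the 6 fits that left out a library. Pcsk5, a proprotein convertase of the family that cleaves the lipase, fell by 0.69 ± 0.09 on the log2 scale, with 106 CPM in STZ and 170.2 CPM in control libraries. The adjusted p by edgeR was 0.000319 for Sort1, 0.000429 for Pcsk5 and 0.0341 for Acvrl1, and the errors are SE.

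A further list held 14 tested genes of fatty acid transport, binding and activation, and of vascular signals known to set endothelial uptake (Vegfb, Nrp1 and Apln). Of these 14, 0 rose, 1 fell and 13 did not pass (median -0.07). The gene that fell was Acsl3, which couples fatty acids to coenzyme A (-0.55 ± 0.16, adjusted p = 0.0442 by edgeR), and its call held in 1 of the 6 fits that left out a library. At an unadjusted p under 0.05 there were 2, DESeq2 called 1 and limma-voom called 0.

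Of 23 other regulators, 4 rose and 1 fell, with a median of 0.03. Those that rose were Id1 (0.80 ± 0.18), Id2 (0.68 ± 0.10) and Id3 (0.55 ± 0.12), which bind the E proteins that bHLH factors such as Tcf15 need as partners, and Notch1 (0.46 ± 0.11). Meox1, the relative of Meox2, fell by 0.50 ± 0.11 on the log2 scale (adjusted p = 0.0109 by edgeR), with 76.5 CPM in STZ and 108 CPM in control libraries. The Id1 call held in 3, the Notch1 call in 2, and the Id3 and Meox1 calls in 5 of the 6 fits that left out a library and the Id2 call in all 6. Id1 was named after its value was seen (adjusted p = 0.0238 by edgeR). The other PPAR genes, chosen after their values were seen, gave -0.02 ± 0.21 for Ppara and 0.14 ± 0.11 for Ppard on the log2 scale, and neither passed.

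Of 16 genes known to respond to PPAR activation, beside the uptake genes themselves, 0 were called by edgeR, by DESeq2 or by limma-voom, and 4 had an unadjusted p under 0.05 in edgeR, as did 3091 of all 12786 tested genes. Their median log2 fold change was 0.21, and 14 of 16 had a positive value, against -0.01 and 6159 of 12786 for all tested genes. Among the most abundant was Cpt1a, which admits fatty acids to mitochondria (0.16 ± 0.09). Pdk4, a kinase that slows glucose oxidation and was chosen after its value was seen, had 6.75 CPM in STZ and 3.74 CPM in control libraries (log2 fold change 0.83 ± 0.25, adjusted p = 0.0548 by edgeR). Of 20 mitochondrial beta-oxidation genes 0 were called by any of the 3 tools, 1 had an unadjusted p under 0.05, and the median was 0.08. Hadha, a subunit of the trifunctional enzyme of beta-oxidation and the most abundant beside Cpt1a, had 114 CPM in STZ and 123 CPM in control libraries.

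Of 22 genes of triglyceride storage and release, 3 rose and 0 fell, with a median of 0.01. They were Lpin3, a phosphatidate phosphatase (1.33 ± 0.14), Mgll, which cleaves monoglycerides (0.73 ± 0.09), and Pnpla2, the first lipase of stored triglyceride (0.66 ± 0.10). These calls held in every fit that left out a library (adjusted p at most 0.0105 by edgeR). Of 19 genes of fatty acid synthesis and elongation, 2 rose, 1 fell and 16 did not pass, with a median of -0.08. The elongase gene Elovl5 rose by 0.72 ± 0.09, with 260 CPM in STZ and 158 CPM in control libraries. Mlxip, a glucose-sensing transcription factor, rose by 1.00 ± 0.13 on the log2 scale, and Hacd3 (listed as Ptplad1), an enzyme of chain elongation, fell by 0.40 ± 0.11, a call that held in 1 of the 6 fits that left out a library.

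**Figure D4:**
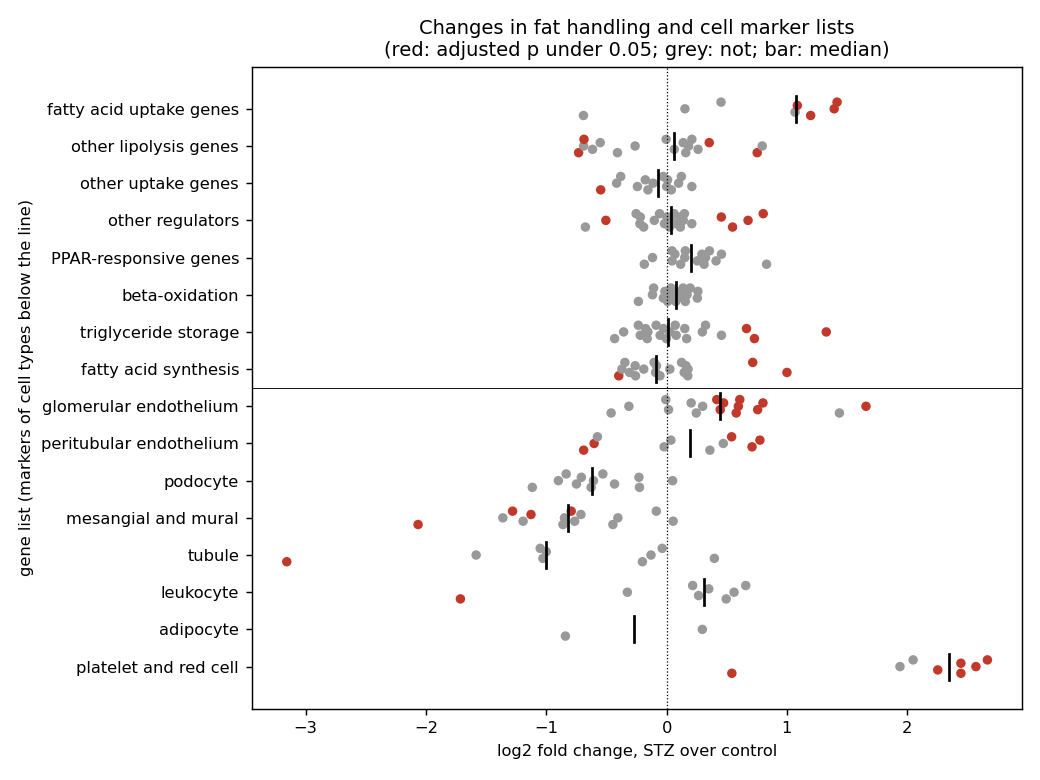
Log2 fold change, STZ over control (horizontal axis) for each tested gene of the fatty acid uptake group, of 7 lists of partner genes and, below the line, of 8 lists of cell type markers; red marks an adjusted p under 0.05 and bars mark medians. The uptake genes have a median of 1.08, the partner lists have medians from -0.08 to 0.21, and the glomerular endothelial markers have a median of 0.45. The platelet and red cell markers have the highest median, 2.35.

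Markers of other cells that the sort could hold also moved. Mesangial and mural markers summed to 618 to 1207 CPM in STZ and 1658 to 1871 CPM in control libraries, and 4 of 14 fell, with a median log2 fold change of -0.82 and 1 of 14 positive. The most abundant of them were Serpine2 and the integrin gene Itga8, with log2 fold changes of 0.05 ± 0.30 and -0.85 ± 0.32 that did not pass (adjusted p of 0.940 and 0.192 by edgeR). Serpine2 was the 1 marker with a positive value, and the lowest log2 fold change of the list was -2.07. Podocyte markers overlapped, at 4785 to 5894 CPM in STZ and 4428 to 7211 CPM in control libraries, and none of 12 passed. Their median log2 fold change was -0.62 and 1 of the 12 was positive, Podxl, which is also the most abundant (0.05 ± 0.13). Podxl alone averaged 3708 CPM in STZ and 3581 CPM in control libraries, so the podocyte sums rest mostly on this gene. Tubule markers summed to 45.2 to 263 CPM in STZ and 156 to 540.5 CPM in control libraries, with 1 of 9 lower and 1 of 9 positive in log2 fold change, and their most abundant genes Slc12a3 and Umod did not pass. The sum of each of these lists was above 0 in every library. Peritubular and venous endothelial markers overlapped in sum, at 3823 to 4042 CPM in STZ and 3819 to 4815 CPM in control libraries, with 3 of 10 higher and 2 lower. The most abundant of them were Igfbp5, which fell by 0.60 ± 0.12, and Cd300lg, a capillary mucin-like receptor, which rose by 0.78 ± 0.10 (SE, log2 scale). Igfbp5 averaged 2034 CPM in STZ and 3087 CPM in control libraries, so these sums rest mostly on this gene. Of the 10 markers 6 had a positive log2 fold change, and the median was 0.20.

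Leukocyte markers, a list that matters because macrophages express Lpl, Cd36 and Fabp5, summed to 133 to 144 CPM in STZ and 97.7 to 176 CPM in control libraries and overlapped, with 1 of 8 lower. Their median log2 fold change was 0.31 and 6 of 8 were positive. The gene that fell was the B cell gene Cd79a, named after its value was seen, as was the macrophage gene Lyz2, with counts of 118, 130 and 151 in STZ pools and 68, 56 and 24 in control pools and a log2 fold change of 0.66 ± 0.20 that did not pass (adjusted p = 0.0572 by edgeR). Ptprc, the pan-leukocyte surface protein CD45, had a log2 fold change of -0.33 ± 0.12 and S100a8 of 0.35 ± 0.62, and neither passed. Of the adipocyte markers, 2 of 9 were analysed here, Lipe and Slc2a4, with 67.0 to 82.8 CPM in STZ and 61.0 to 64.1 CPM in control libraries, and neither passed. The part of these cell types in the levels of Gpihbp1, Lpl, Fabp4 and Cd36 was not tested.

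**Figure D5:**
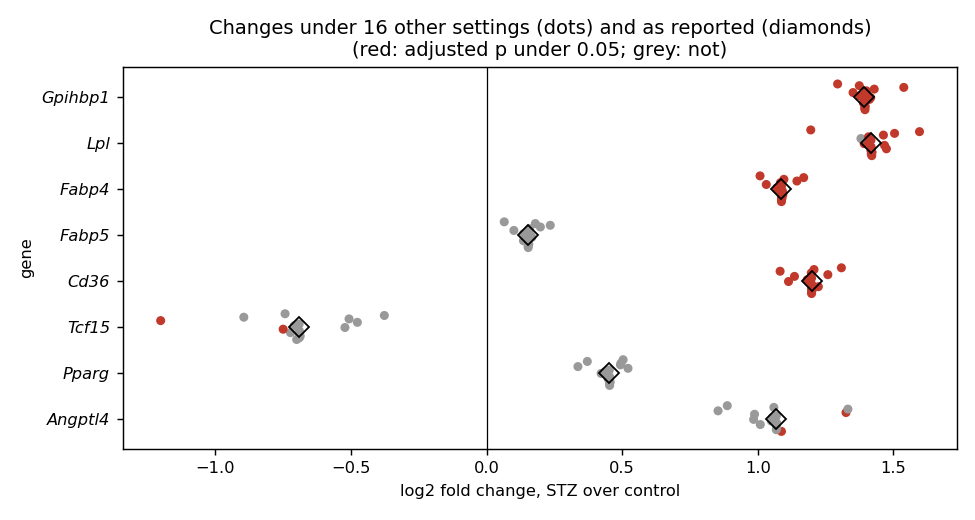
Log2 fold change, STZ over control (horizontal axis) of the 8 measured genes as reported (diamonds) and under 16 other settings of the analysis (dots), red where the adjusted p was under 0.05. Gpihbp1, Fabp4 and Cd36 are red throughout, Lpl has 1 grey dot, and Tcf15 spreads from -1.20 to -0.38.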

How the data were processed

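RNA of sorted glomerular endothelial cells was sequenced in 3 STZ and 3 control pools of 4 mice, grouped by their labels. Each table deposited by the authors held expected counts per gene (multiples of 0.5), and 34 blank cells were read as 0. The submitters' processing notes name mm10 and limma; the sources used here do not give the aligner, counting tool or strand setting. Listed starts were raised by 1 to give 1-based coordinates.

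Counts were rounded and tested across all genes with edgeR 4.0.16 in R 4.3.3 (filterByExpr, TMM, robust quasi-likelihood test, two-sided, Benjamini-Hochberg over 12786 genes, threshold 0.05), after a test on simulated data. CPM use the TMM-scaled library size, SE is that of the fitted log2 fold change, and totals of 4387339 to 12662371.5 counts set the counting error.

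The members and lists were chosen with earlier results of these data known. Named genes were the 9 members, up to 4 called genes per partner list with the smallest p (or the 2 most abundant where none was called), the 2 most abundant markers per cell type and the 3 genes most like each called member. Values of 3 genes that this rule names are not reported here. Proteins were not compared here. Other settings were DESeq2 1.42.0, limma-voom (limma 3.58.1), 2 other normalizations, 2 other filters, a fit that was not robust, unrounded values, libraries thinned to the smallest total, a replicate block and leaving out each library.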

Additional observations from a re-analysis of the deposited data

How the results depend on the processing

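All 8 measured genes kept their direction under all 16 settings, and Gpihbp1, Fabp4 and Cd36 kept their call. Lpl was called under 15, with a log2 fold change of 1.20 to 1.60 without 1 library (adjusted p of 7.09e-06 to 0.0505), and Fabp5 and Pparg were never called. Without 1 library the values ran from 1.29 to 1.54 for Gpihbp1, 1.01 to 1.17 for Fabp4, 1.08 to 1.31 for Cd36, 0.06 to 0.23 for Fabp5, 0.34 to 0.52 for Pparg, 0.85 to 1.33 for Angptl4 and -1.20 to -0.38 for Tcf15. Angptl4 and Tcf15 were each called under 2 of the 16. Angptl4 passed with DESeq2 (1.09, adjusted p = 0.00853), and the cause was not tested. With a replicate block Tcf15 passed (-0.75, adjusted p = 0.0139), so 1 measured gene was called lower. The replicate numbers share no stated origin. The deviations of same-numbered STZ and control libraries correlated at 0.12, -0.13 and -0.16, and those of the other pairs at -0.24 to 0.29. Deviations from the mean of only 3 libraries a group cannot show whether the numbers pair pools. Whether the block is the better estimate was therefore not settled. The block gave 1001 called genes, against 1251 without it. Without 1 library, 426 to 695 genes were called higher and 236 to 596 lower over all genes, with 3 to 5 measured genes higher and 0 to 1 lower; the cause was not tested. The lowest counts came without STZ pool 1 (662 in all) and control pool 1 (720). The other normalizations moved the median of all genes by less than 0.1. Angptl4 rested on 17 counts in control pool 3, the lowest count of a measured gene.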
